A study of Caenorhabditis elegans with 45 samples.

Results

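The clec genes are the Caenorhabditis elegans genes whose symbol starts with clec-, in the WBcel235 annotation. They were chosen by that symbol alone, and 240 of the 46919 annotated genes in the count files qualified. They carry 237 distinct symbols, because clec-15, clec-209 and clec-249 each name a pair of annotated genes. In the fit across all genes, 166 members passed the filter on low counts, out of 17185 genes that passed, and 10 members had no count in any library. The libraries were poly(A)-selected RNA-seq of whole hermaphrodites on adult day 1, in 15 groups of 3 replicates. The wild parental groups were the wild strains CB4856, DL238, ECA701, ECA722, EG4348, QX1211 and XZ1516, all labelled wildtype and propagated by selfing. The F1 groups came from crossing males of each wild strain to N2 mothers carrying a fog-2 deletion, which makes hermaphrodites unable to make sperm of their own, and the F1 animals were also labelled wildtype. The laboratory strain N2, labelled as carrying the fog-2 deletion, was the group against which all of them were set. Males were taken out by hand before collection, and nothing in the labels ties replicates to separate cultures beyond their separate libraries, so p-values measure the spread between these libraries.

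C-type lectins take their name from proteins that bind sugars in the presence of calcium, and the fold that does so, the C-type lectin-like domain, is shared by many proteins with no known sugar. The nematode family is large and lies in part in clusters of neighbouring genes. Many members encode small secreted proteins, many are transcribed in the intestine, the tissue that meets swallowed bacteria, and subsets of them are induced by particular infections, partly under control of the p38 kinase PMK-1, the growth factor DBL-1 and the intestinal GATA factor ELT-2. For most members no function is known.

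Depth ranged from 24.8 M counts per library, in CB4856 parental replicate 3, to 91.9 M in EG4348 parental replicate 3, with a median of 64.1 M. Replicates of a group correlated at 0.992 to 0.999 across genes, and no pair of replicates differed by as little as sampling noise. The targeted gene did not follow its label. The sex-determination gene fog-2 had 42.1 ± 4.95 CPM (SD, n = 3) in the libraries labelled N2 with the deletion. Group means in the wild parents were 32.4 to 45.5 CPM. Those of the F1 groups were 21.8 to 30.2 CPM, each below its wild parent and N2. Whether the N2 libraries had the genotype of the F1 mothers was not tested. Directions below are thus relative to the libraries labelled N2, whatever their fog-2 genotype. CPM are counts-per-million values scaled by the trimmed mean of M values (TMM), and TPM are transcripts-per-million values, which also correct for length.

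A few members supplied most of the clec RNA. Averaged over the 45 libraries, 8 members exceeded 100 TPM, 29 exceeded 10 TPM, 51 lay between 1 and 10 TPM and 160 fell below 1 TPM. The 8 most abundant held 78.7% of the family's summed TPM of 3640, and the top 4 held 62.9%. Those 4 were clec-87 at 1210 TPM, clec-88 at 460 TPM, clec-63 at 319 TPM and clec-91 at 300 TPM. The next were clec-1 at 167 TPM, clec-50 at 159 TPM and the pair of genes named clec-209 at 126 TPM each. The median passing member had 0.863 TPM, against 5.61 TPM for all passing genes.

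Chromosome V carried 86 members, IV 53, II 48, I 36, III 14 and X 3. A neighbour of the same family stood within 10 kb of 155 members. Coding lengths ran from 342 bases for 1 of the clec-249 genes to 10542 bases for clec-78, with a median of 949.5. Shared sequence limits some values: 9 members shared at least 10% of their fragments with other genes, all fragments of the clec-209 pair were shared between its copies, and so were those of clec-85, mostly with clec-84. Coding genes on the other strand overlapped 32 members, and coding genes on the same strand overlapped 7. The library kit kept strand, per the labels.

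Among the 8 parental strains, 161 of the 166 tested members differed somewhere (edgeR quasi-likelihood F-test over the 7 strain contrasts, adjusted p below 0.05). That was 97.0% of members, against a background of 87.5% of all genes. Every contrast with N2 below shares the same 3 N2 libraries. Against N2, 73 members were called in EG4348 (44.0%, background 32.2%), with 43 higher (background 14.6%) and 30 lower (background 17.6%). In CB4856, 92 members were called (55.4%, background 30.5%), with 49 higher (background 14.5%) and 43 lower (background 16.1%). In QX1211, 88 members were called (53.0%, background 46.0%), with 52 higher (background 22.2%) and 36 lower (background 23.8%). In DL238 the count was 84 (50.6%, background 35.8%), with 48 higher (background 17.5%) and 36 lower (background 18.3%). XZ1516 had 80 members called (48.2%, background 45.1%), of which 30 were higher (background 19.5%) and 50 lower (background 25.6%). ECA701 had 122 (73.5%, background 52.6%), of which 77 were higher (background 25.5%) and 45 lower (background 27.1%). ECA722 had 75 (45.2%, background 41.6%), of which 46 were higher (background 20.8%) and 29 lower (background 20.8%). In XZ1516, ECA722 and QX1211 the members' share was thus near the background, and in CB4856 and ECA701 it stood more than 20 percentage points above it.

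**Figure D1:**
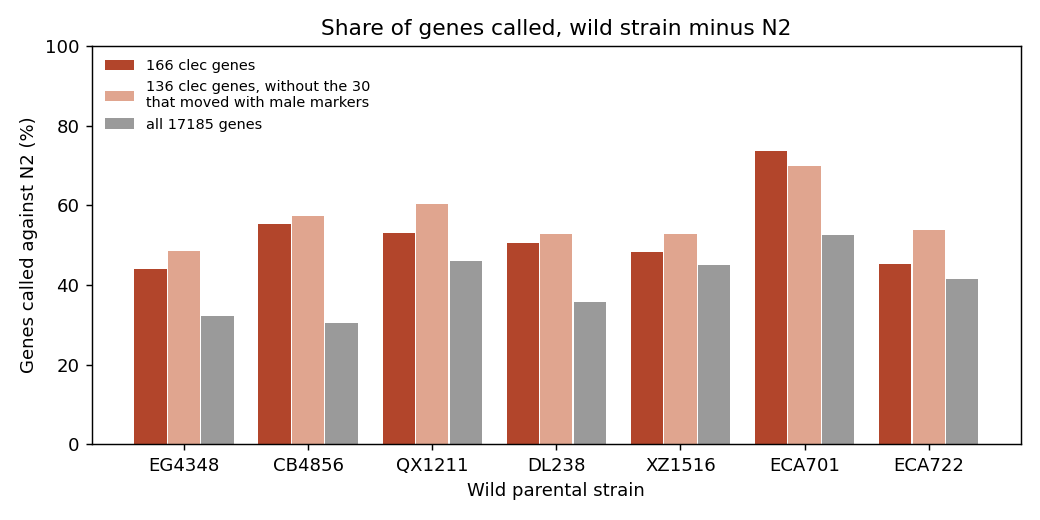
Share of genes called different from N2 (percent, adjusted p below 0.05) in each wild parental strain, as bars for the 166 tested clec genes, for the 136 left without the 30 that moved with male markers, and for all 17185 tested genes. The clec bars stand above the all-gene bar in every strain, by the widest margin in CB4856 (55.4% against 30.5%) and by the narrowest in XZ1516 (48.2% against 45.1%).

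The sizes of the differences stood further from the background than the counts did. At least 2-fold differences were called for 59 members in CB4856, 35.5% of those tested against a background of 11.1%, and for 93 members in ECA701, 56.0% against a background of 21.6%. EG4348 had 41 such members (24.7%, background 11.0%), QX1211 66 (39.8%, background 16.1%) and DL238 53 (31.9%, background 11.6%). XZ1516 had 55 (33.1%, background 17.1%) and ECA722 44 (26.5%, background 13.9%). The median absolute log2 difference among members was 1.12 in CB4856, 0.92 in DL238, 1.77 in ECA701, 0.68 in ECA722, 0.77 in EG4348, 0.88 in QX1211 and 1.04 in XZ1516. Over all tested genes it lay between 0.24 and 0.35. With members at 0 counts set to their bound, the 7 medians were 0.98, 0.92, 1.74, 0.66, 0.68, 0.85 and 0.99 in the same strain order. Members were less abundant than the average gene and also varied more between replicates, with a median SD of 0.15 on the log2 scale over the 78 members at 1 CPM or more, against 0.09 over 11308 genes. The part of abundance in the counts and sizes was not tested. Sizes of single members could also depend on the set of deposited counts. clec-49 in XZ1516 was at 0.86 in the counts used here and at -4.55 in those from kallisto. Of the 76 members called in XZ1516 with both sets, 75 kept their direction. The part of read assignment in the sizes was not tested.

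**Figure D2:**
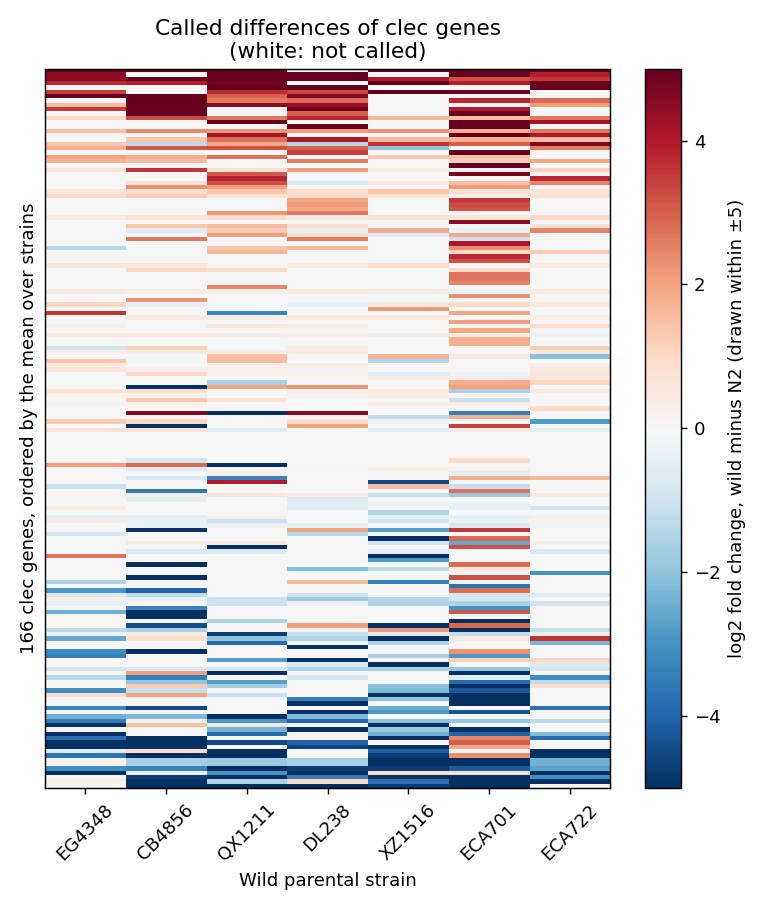
Log2 differences of the 166 tested clec genes (rows, ordered by their mean) in the 7 wild parental strains (columns) against N2, with differences past adjusted p 0.05 coloured on a scale clipped at -5 and 5 and the rest left white. Most rows carry colours of both directions or white cells, the column of ECA701 is the fullest with 122 coloured cells, and few rows have a single colour throughout.

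The 4 most abundant members differed from N2 by less than 2-fold in every wild strain. clec-87 (chromosome I, 10184462 to 10185520, minus strand, overlapped by iars-2 on the other strand) had 601, 637 and 598 CPM in CB4856, against 854, 931 and 894 CPM in N2. The groups did not overlap, and the log2 difference was -0.55 ± 0.04 (SE). In XZ1516 it had 1060, 1070 and 1120 CPM, above every N2 library, a log2 difference of 0.28. It was also called in ECA701 (0.21) and in DL238 at -0.11, a call lost under most alternatives, for example DESeq2 (adjusted p = 0.0793). clec-88 (chromosome II, 6365722 to 6367002, plus strand, overlapped on the same strand by ctsa-4.1) was higher in EG4348, CB4856, XZ1516 and ECA701, by 0.19 to 0.29 on the log2 scale. clec-91 (chromosome I, 9126140 to 9127101, minus strand) was higher in EG4348, CB4856, DL238, XZ1516 and ECA701, by 0.12 to 0.33; the DL238 call did not hold in a fit of DL238 and N2 libraries alone (adjusted p = 0.0932).

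clec-63 (chromosome II, 12895638 to 12897446, plus strand) had the widest rise of the 4. It had 567, 544 and 544 CPM in XZ1516, against 297, 299 and 295 CPM in N2, a log2 difference of 0.89. Its log2 differences were 0.52 in EG4348, 0.58 in CB4856, 0.48 in DL238, 0.46 in ECA722 and 0.15 in QX1211. No library of these 6 strains overlapped the N2 libraries. The QX1211 call was lost without QX1211 replicate 1 (adjusted p = 0.0721). In ECA701 it had 272, 279 and 292 CPM and the difference did not pass the test (adjusted p = 0.142).

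clec-1 (chromosome V, 5700154 to 5701080, plus strand) went both ways. It had 80.2, 79.2 and 78.8 CPM in XZ1516 and 134, 147 and 145 CPM in QX1211, against 124, 115 and 115 CPM in N2. The XZ1516 libraries lay below and the QX1211 libraries above all N2 libraries, with log2 differences of -0.57 and 0.27. The QX1211 call was lost on leaving out QX1211 replicate 2 (adjusted p = 0.057) or N2 replicate 2 (0.054) or 3 (0.051). clec-1 was also lower in EG4348, CB4856, ECA701 and ECA722, at log2 differences of -0.50, -0.44, -0.40 and -0.31.

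clec-50 (chromosome V, 19752399 to 19755368, minus strand) had 65.8, 67.2 and 70.7 CPM in XZ1516 and 41.3, 41.3 and 44.5 CPM in ECA701, against 160, 154 and 145 CPM in N2. Both strains lay below every N2 library, by -1.17 ± 0.05 in XZ1516 and -1.85 ± 0.05 in ECA701 on the log2 scale. It was higher in QX1211, with 233, 230 and 242 CPM (0.62 ± 0.05), and in ECA722, with 212 ± 8.28 CPM (SD, n = 3; 0.47 ± 0.05), and by 0.17 in EG4348, 0.34 in CB4856 and 0.35 in DL238. The EG4348 and DL238 calls were lost with kallisto counts (adjusted p = 0.387 and 0.16). With counts from kallisto, the other set of deposited counts, its XZ1516 difference was -2.09.

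clec-209 differed the most among the abundant members. Its copies lie on chromosome V at 2459637 to 2460893 and 2351676 to 2352932, both on the plus strand, and the values here are those of either copy, because their reads cannot be told apart. Each had 0, 0.0064 and 0 CPM in ECA701 and 5.74, 5.13 and 5.11 CPM in XZ1516, against 223, 237 and 225 CPM in N2. The XZ1516 log2 difference was -5.42 ± 0.06, and -4.42 with kallisto counts. CB4856, with 74.2 ± 4.15 CPM (SD, n = 3), QX1211, with 60.4 to 65.4 CPM, DL238, with 69.2 to 74.9 CPM, and ECA722, with 40.5 to 46.3 CPM, formed a middle group at log2 differences of -1.62, -1.85, -1.65 and -2.39. EG4348 had 252, 253 and 258 CPM, above all N2 libraries by 0.16 ± 0.05 (adjusted p = 0.0115). Whether the number of copies differs between the strains was not analysed here.

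A second set of members was near or at 0 in some strains. Of the 109 members whose mean reached 1 CPM in some parental group, 20 had no count at all in another: 10 in CB4856, 5 in XZ1516, 4 in QX1211, 3 in EG4348, 3 in ECA701, 2 in DL238, 2 in ECA722 and 2 in N2. How many of all genes reaching 1 CPM were at 0 in another group was not counted, so these numbers do not set the family apart. Of those at 0 in CB4856, clec-73, clec-92, clec-94, clec-107, clec-136 and clec-138 were among the 30 members that moved with male markers, described below. Male markers summed to 0.689 CPM in CB4856 parents, against 0.906 CPM in N2, and the shallowest library was a CB4856 parental one (24.8 M). The part of either in the CB4856 count was not tested. A count of 0 does not say whether the gene is in that strain's genome, which was not analysed here. Folds against such groups are lower bounds that set the group at 3 counts in all.

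clec-10 (chromosome II, 402678 to 404180, plus strand) was the clearest of them. It had no count in any of the 9 libraries of CB4856, ECA701 and ECA722, against 13.1, 14.4 and 15.0 CPM in N2. It was at least 694-fold lower in CB4856, at least 1030-fold lower in ECA701 and at least 1050-fold lower in ECA722. kallisto counts in those groups summed to 0, 3 and 0. XZ1516 was low but not at 0, with 1.16, 0.951 and 1.07 CPM (log2 difference -3.74 ± 0.12), QX1211 stood at 4.93, 5.36 and 4.11 CPM (-1.55 ± 0.10), and DL238 was above N2 with 26.4, 27.9 and 28.7 CPM (0.97 ± 0.10). The libraries of these 6 strains did not overlap those of N2.

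clec-47 (chromosome V, 15175759 to 15176324, plus strand) was low in 6 strains. It had 0, 0.0146 and 0.021 CPM in XZ1516 and 0.0464, 0.0948 and 0.454 CPM in QX1211, against 33.0, 35.6 and 36.2 CPM in N2. Those differences were -11.34 ± 0.34 and -7.76 ± 0.24 on the log2 scale. CB4856, with 1.63, 1.11 and 1.32 CPM, and ECA701, with 1.31, 0.755 and 1.19 CPM, were at -4.69 ± 0.19 and -5.01 ± 0.18. DL238, with 2.88 to 3.11 CPM, and ECA722, with 4.02 to 4.41 CPM, were at -3.55 ± 0.16 and -3.06 ± 0.16. EG4348 had 28.3, 31.3 and 30.2 CPM and did not pass the test (adjusted p = 0.226).

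clec-166, clec-169 and clec-170 lie within 1 cluster on chromosome IV, between 1249192 and 1274425, and each had its own pattern over the strains. clec-166 had no count in ECA722 and 0.0155, 0.0316 and 0 CPM in QX1211, against 7.36, 6.78 and 6.13 CPM in N2; it was at least 485-fold lower in ECA722. In CB4856 it had 13.8, 13.3 and 11.0 CPM, above all N2 libraries by 0.92 ± 0.16 on the log2 scale. clec-169 had no count in EG4348 or XZ1516, at least 82.1-fold and 68.6-fold lower than the 1.38, 1.02 and 1.24 CPM of N2, and was higher in CB4856 at 2.79, 3.39 and 3.79 CPM (1.45). clec-170 had 55.1, 52.6 and 51.4 CPM in CB4856 and 18.8, 18.3 and 19.6 CPM in DL238, against 4.14, 4.33 and 4.70 CPM in N2, at log2 differences of 3.59 ± 0.09 and 2.10 ± 0.09. CB4856 was thus the high strain for all 3.

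Some members had no count in N2. clec-242 (chromosome V, 17243598 to 17245506, minus strand) was at 0 in N2 and in DL238, while ECA722 had 0.968, 0.725 and 1.54 CPM, at least 83.2-fold higher than N2, and EG4348 had 0.621, 0.510 and 0.572 CPM, at least 43.6-fold higher. clec-110 (chromosome I, 13204497 to 13205403, plus strand) was at 0 in N2 and in XZ1516, while DL238 had 1.99, 0.833 and 0.26 CPM, at least 76.6-fold higher than N2. The 3 DL238 libraries of clec-110 lay far apart. Over the 45 libraries, the gene's deviations from group means correlated with those of male markers at 0.502.

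**Figure D3:**
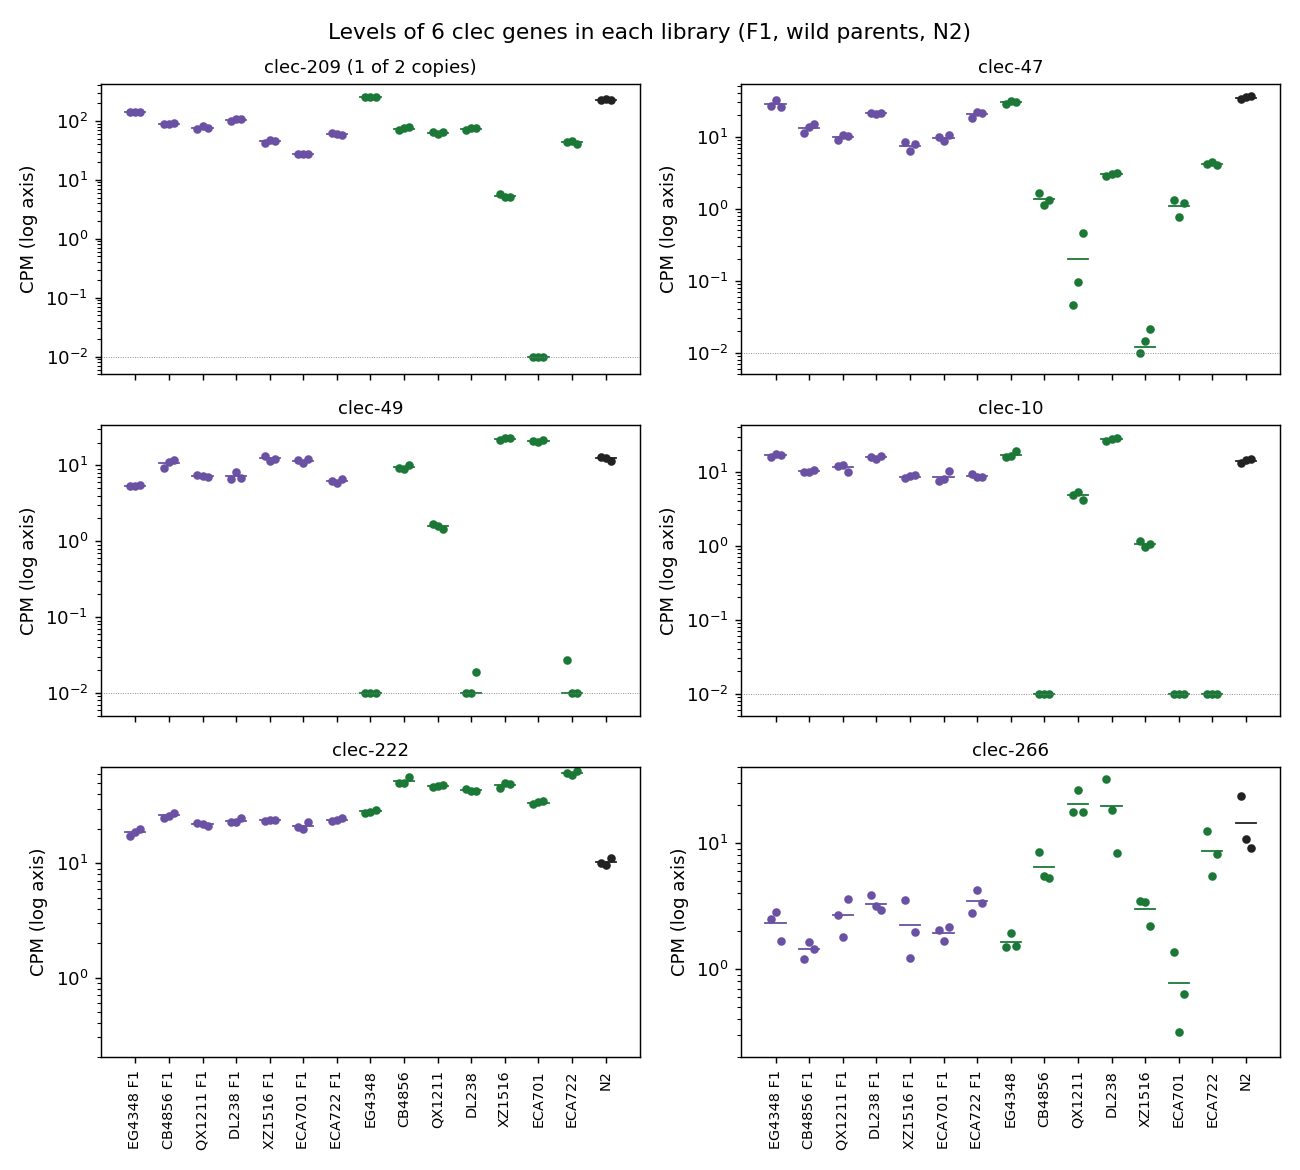
CPM on a log axis of 6 clec genes (1 of the clec-209 copies, clec-47, clec-49, clec-10, clec-222 and clec-266) in every library, by cross, with F1 libraries in purple, wild parents in green, N2 in black and group means as lines; values below 0.01 are drawn at 0.01. clec-10 parents sit at the bottom in CB4856, ECA701 and ECA722, clec-222 is above N2 in every wild strain, and clec-266 F1 libraries lie below all N2 libraries; the clec-49 direction in XZ1516 and ECA701 turns with kallisto counts.

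By the call against N2, 6 members were higher in all 7 wild strains and 2 were lower in all 7, with the N2 libraries shared by every contrast. These were 3.61% and 1.20% of the members tested, against 1.69% and 1.76% of all genes, so the lower count was not above the background. The higher ones were clec-33, clec-54, clec-82, clec-205, clec-222 and clec-265, and the lower ones were clec-150 and clec-238. clec-222 (chromosome V, 11271351 to 11272467, plus strand) was the most abundant of the 6, with library values from 27.8 CPM in EG4348 to 63.6 CPM in ECA722, against 9.98, 9.63 and 11.2 CPM in N2. All 21 wild libraries lay above all N2 libraries, and the log2 differences were 1.47 in EG4348, 1.73 in ECA701, 2.09 in DL238, 2.20 in QX1211, 2.24 in XZ1516, 2.36 in CB4856 and 2.59 in ECA722, each ± 0.06.

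Its neighbour clec-223 begins 681 bases further along the same strand (11273148 to 11278161) and did not share that pattern. It had 201, 177 and 164 CPM in EG4348 and 10.4, 10.4 and 11.7 CPM in ECA722, against 88.3, 68.3 and 70.7 CPM in N2. EG4348 stood above all N2 libraries and ECA722 below them, at log2 differences of 1.26 ± 0.10 and -2.80. It was also higher in CB4856 (1.00) and DL238 (0.92).

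clec-265 on the X chromosome (3031783 to 3033117, plus strand) had 11.8 to 19.5 CPM over the wild libraries, against 9.08, 8.86 and 10.2 CPM in N2, at log2 differences of 0.42 to 0.99. clec-205 (chromosome V, 1760893 to 1765305, plus strand) had 3.10 to 6.98 CPM in wild libraries, against 2.50, 2.13 and 2.49 CPM in N2, at 0.59 to 1.39. clec-54 (chromosome V, 14476903 to 14479003, plus strand) had 7.43 to 17.9 CPM, against 5.86, 7.38 and 6.37 CPM, but its ECA701 call of 0.25 was lost on leaving out ECA701 replicate 1 (adjusted p = 0.073) or 2 (0.059), or N2 replicate 1 (0.113) or 3 (0.089). The wild libraries of all 3 lay above the N2 libraries.

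clec-82 and clec-33 were near 0 in N2. clec-82 (chromosome IV, 2835664 to 2838723, plus strand) had 3.58, 3.48 and 2.66 CPM in DL238, against 0.24, 0.206 and 0.259 CPM in N2, a log2 difference of 3.78. Its EG4348 call of 0.95 was lost on leaving out EG4348 replicate 2 or 3 or any N2 replicate. clec-33 (chromosome V, 16867678 to 16869840, minus strand) had 0.619, 0.716 and 0.697 CPM in CB4856, against 0, 0.0343 and 0 CPM in N2, a log2 difference of 5.52.

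clec-150 (chromosome III, 1002707 to 1006298, plus strand) was the more abundant of the lower pair. Its lowest values were 23.4, 22.5 and 23.1 CPM in ECA701, and its values in CB4856, the highest of the wild strains, were 50.8, 49.3 and 57.4 CPM, against 89.5, 86.6 and 94.2 CPM in N2. No wild library reached the lowest N2 library, and the log2 differences ran from -1.97 in ECA701 to -0.78 in CB4856. clec-238 (chromosome V, 16951804 to 16953629, plus strand, with 13.2% of its fragments shared) was at most 0.121 CPM in any wild library, against 0.18, 0.377 and 0.50 CPM in N2.

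Other members are given for a few strains each, and most of them were also called in further strains. clec-3 (chromosome II, 3017468 to 3019907, minus strand) had 7.10, 7.12 and 6.99 CPM in ECA722, 3.67, 2.95 and 3.93 CPM in XZ1516 and 2.04, 2.28 and 2.66 CPM in ECA701, against 0.38, 0.274 and 0.216 CPM in N2. The log2 differences were 4.65, 3.64 and 3.04, each ± 0.25, and the N2 libraries lay below all 9. clec-71 (chromosome IV, 3937458 to 3939979, plus strand) had 8.40, 10.2 and 8.92 CPM in ECA701 and 2.16, 1.31 and 1.70 CPM in CB4856, against 0.06, 0 and 0.0431 CPM in N2, differences of 8.13 ± 0.47 and 5.72, and was higher in DL238 by 2.95. clec-97 (chromosome I, 11152704 to 11154330, plus strand, overlapped by clec-98 on the other strand) had 0.0693, 0.0877 and 0.168 CPM in XZ1516, against 13.8, 13.2 and 15.5 CPM in N2, a difference of -7.07 ± 0.17, and was lower in DL238 (-0.70) and ECA722 (-0.69).

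clec-24 and clec-147 were likewise split. clec-24 (chromosome V, 16862012 to 16863890, plus strand) had 1.79, 1.59 and 1.94 CPM in CB4856, 1.07, 1.15 and 1.28 CPM in QX1211 and 1.34, 0.640 and 1.25 CPM in DL238, against 0.02, 0.0686 and 0.0539 CPM in N2. clec-147 (chromosome II, 14535926 to 14537828, minus strand) had 0.46, 0.334 and 0.426 CPM in CB4856 and 0.686, 0.569 and 0.243 CPM in ECA722, against 4.44, 4.63 and 4.15 CPM in N2. The groups did not overlap for either gene. The log2 differences of clec-24 were 5.06, 4.46 and 4.34, and those of clec-147 were -3.45 and -3.14.

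clec-186 and clec-75 differed in both directions. clec-186 (chromosome IV, 12866109 to 12869080, plus strand) had 68.4, 64.7 and 72.3 CPM in EG4348, 59.1, 60.0 and 66.1 CPM in ECA701 and 25.7, 23.6 and 24.7 CPM in DL238, against 32.8, 32.3 and 32.2 CPM in N2. EG4348 and ECA701 lay above and DL238 below all N2 libraries, at log2 differences of 1.08, 0.93 and -0.39. clec-75 (chromosome IV, 3960734 to 3962846, plus strand) had 1.65, 1.68 and 1.69 CPM in DL238, 1.91, 1.81 and 1.20 CPM in CB4856 and no count in QX1211, against 0.14, 0.0686 and 0.0216 CPM in N2. The DL238 and CB4856 libraries lay above N2, by 4.57 and 4.55 on the log2 scale.

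Members known from infection work varied among the strains without a shared direction. clec-60, a gene induced by Staphylococcus aureus, had 2.65, 2.50 and 1.97 CPM in CB4856, against 0.02, 0.0686 and 0 CPM in N2, a log2 difference of 6.21 ± 0.72. It was also higher in ECA701, at 0.28, 0.563 and 0.46 CPM (3.76), and in DL238 (2.83), ECA722 (2.84) and QX1211 (2.61, lost without N2 replicate 3, adjusted p = 0.0518). clec-4, a gene studied for its response to several bacteria, had 10.7, 8.42 and 11.3 CPM in QX1211 and 5.50, 6.44 and 5.82 CPM in ECA722, against 1.12, 1.14 and 0.981 CPM in N2. Those differences were 3.23 ± 0.19 and 2.45, those of ECA701, CB4856 and XZ1516 were 1.49, 0.64 and 0.47, and that of DL238, which was lower, was -0.74. The XZ1516 call was lost on leaving out any N2 replicate (adjusted p = 0.0546 to 0.131).

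clec-67, a common reporter of intestinal immune activity, had 7.19, 6.88 and 5.71 CPM in QX1211 and 6.21, 6.32 and 5.34 CPM in ECA701, against 1.38, 1.71 and 1.56 CPM in N2. The differences were 2.08 ± 0.26 and 1.93, and DL238 was higher by 0.84. clec-17, induced by Microbacterium nematophilum, had 0.503, 0.556 and 0.82 CPM in XZ1516, its highest values, against 0, 0 and 0.0216 CPM in N2. It was higher in 6 strains, by 3.75 to 5.90 on the log2 scale, while DL238 parents and their F1 had no count.

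clec-85, another infection reporter whose reads are all shared, had 4.34, 4.29 and 3.93 CPM in DL238, against 14.7, 14.6 and 14.2 CPM in N2, a log2 difference of -1.79, or -0.57 with kallisto counts. Its CB4856 difference was -0.37 and turned to 0.13 with kallisto counts (adjusted p = 0.169). clec-41 had 49.5, 53.1 and 54.2 CPM in ECA701, against 84.8 ± 4.65 CPM in N2 (SD, n = 3), a log2 difference of -0.70, and was lower in CB4856, QX1211 and DL238 at -0.34, -0.30 and -0.52. It was also called in ECA722 at -0.20, a call lost with kallisto counts (adjusted p = 0.0948) and on leaving out any ECA722 replicate or N2 replicate 1 or 2. clec-42 stayed at or below 0.426 CPM in every parental library. clec-38 and clec-39, the last of which acts in defence against Serratia marcescens, did not pass the filter.

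clec-49, also needed against Serratia, lies next to clec-50 (chromosome V, 19748961 to 19751226, minus strand) and shared 8.46% of its fragments with other genes, mostly clec-50. It had no count in EG4348, at least 852-fold lower than the 13.1, 12.7 and 11.5 CPM of N2, and at most 0.027 CPM in any DL238 or ECA722 library. QX1211 had 1.70, 1.57 and 1.44 CPM (-2.97 ± 0.12). In XZ1516 it had 21.9, 22.9 and 23.0 CPM and in ECA701 20.9, 20.5 and 21.8 CPM, above N2 by 0.86 and 0.76 on the log2 scale. That direction depends on the count set: with kallisto counts the differences were -4.55 and -4.52. kallisto TPM averaged 0.601 in XZ1516 and 0.672 in ECA701, against 14.6 in N2. In the allele-aware counts the wild allele was also the higher in the F1. Its share was 77.1% in the XZ1516 cross (allelic test, adjusted p = 0.000701), and the allelic log2 difference was 1.93 in ECA701. Reads that fit 1 gene and 1 allele only averaged 462 for the wild and 142 for the N2 allele in the XZ1516 F1. Which count set is right was not tested.

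Immune genes outside the family were counted in the same contrasts, in which 14.5% to 25.5% of all genes were higher and 16.1% to 27.1% lower. Of 14 immune regulators, among them pmk-1, its upstream kinases, elt-2 and dbl-1, 8 were higher and 1 lower in QX1211, 6 were higher and 1 lower in XZ1516, 5 were higher and none lower in ECA722, and 3 were higher and 5 lower in ECA701. EG4348 had 2 higher and 2 lower, CB4856 1 and 1, and DL238 3 and 0. Of 20 immune effectors 19 were tested, and CB4856 had 12 higher and 3 lower with a median log2 difference of 0.52. The other strains had 5 to 8 higher and 3 to 8 lower, with medians between -0.07 and 0.25. Neither list moved in a single direction across strains.

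The F1 animals carry 1 wild and 1 N2 copy of each gene in the same cells, so their alleles are compared in a shared environment. The test used the counts that the authors' model assigned to each allele, which include reads that fit both. A gene entered when its allele-specific reads, those that fit 1 allele only, averaged 10 or more over the F1 libraries of the cross. The wild allele differed from the N2 allele for 5 of 46 members in the EG4348 cross (10.9%, background 8.44%), 9 of 49 in CB4856 (18.4%, background 7.82%), 20 of 80 in QX1211 (25.0%, background 11.4%) and 5 of 52 in DL238 (9.62%, background 7.41%). It differed for 35 of 93 in XZ1516 (37.6%, background 17.3%), 21 of 70 in ECA701 (30.0%, background 13.8%) and 17 of 70 in ECA722 (24.3%, background 9.75%). The median absolute allelic log2 difference was 0.37 to 0.68 among members, against 0.18 to 0.22 over all genes. Where both the alleles and the parents differed, the direction was the same for 7 of 7 members in CB4856, 4 of 5 in DL238, 19 of 19 in ECA701, 16 of 17 in ECA722, 4 of 5 in EG4348, 18 of 18 in QX1211 and 28 of 29 in XZ1516. The same share over all genes was not counted, so these numbers do not set the family apart. Members with an allelic call but no parental call, such as clec-110 in XZ1516, are not among them. Both tests used counts from the same assignment model.

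These counts moved with the libraries and reads used. Leaving out any of the 3 F1 libraries took them to 1 to 2 in EG4348, 1 to 4 in CB4856 and 1 to 2 in DL238. The counts fell by more than 1.5 times without F1 replicate 1 or 3 in QX1211 (range 10 to 17), without replicate 1 or 2 in XZ1516 (15 to 24), without replicate 1 or 2 in ECA701 (12 to 17), and without replicate 1 or 2 in ECA722 (4 to 15). With allele-specific reads alone the counts were larger, at 14 in CB4856, 18 in DL238, 33 in ECA722, 11 in EG4348 and 36 in QX1211. DESeq2 gave 10 in DL238 and 28 in ECA722.

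**Figure D4:**
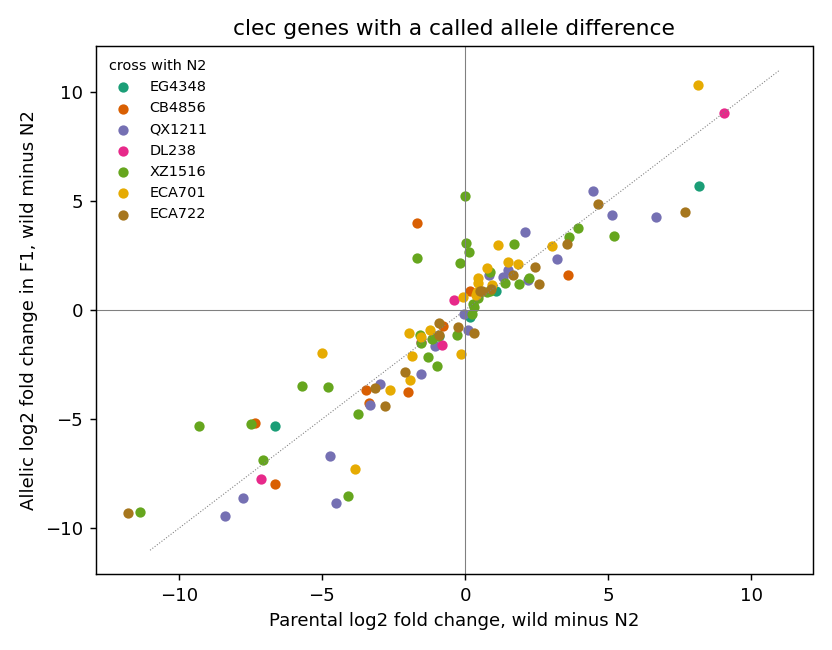
Allelic log2 difference in F1 animals (wild minus N2 allele, vertical) against the parental log2 difference (wild minus N2, horizontal) for each clec gene with a called allelic difference, coloured by cross, with a dotted line where both are equal. Nearly all points lie in the quadrants where both have the same sign, and several, such as clec-170 in CB4856 (3.59 parental, 1.61 allelic), lie well off the dotted line.

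Several of the strongest parental differences were also found between alleles. The wild allele's share of the allele-assigned counts of clec-47 was 0.267 ± 0.462% in the QX1211 cross and 0.131 ± 0.117% in XZ1516 (SD, n = 3 libraries). The wild share of clec-97 was 0.871 ± 0.404% in XZ1516, and that of clec-10 was 3.48 ± 0.877% in XZ1516 (adjusted p = 0.000113). Where wild parents were higher, clec-3 wild alleles gave 96.8 ± 0.83% in ECA722, 91.0 ± 3.51% in XZ1516 and 88.5 ± 2.14% in ECA701. clec-4 wild alleles gave 83.6 ± 2.82% in QX1211 (adjusted p = 0.00205). For clec-3 the parental difference minus the allelic one did not pass the test in these 3 crosses; it was -0.20 ± 0.29 in ECA722, 0.31 ± 0.40 in XZ1516 and 0.08 ± 0.36 in ECA701 (SE).

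In others the alleles were closer than the parents. The 53.0 CPM mean of clec-170 in CB4856 against N2 is a log2 difference of 3.59, while its alleles differed by 1.61 ± 0.18 (75.3 ± 2.81% wild). The remainder, the parental difference minus the allelic one, was 2.00 ± 0.14 (adjusted p = 7.21e-06). In the DL238 cross its allelic difference did not pass the test (56.5 ± 7.21%, adjusted p = 0.452) and the remainder was 1.71 ± 0.21 (adjusted p = 0.000526). clec-47 in the ECA701 cross had a wild share of 20.3 ± 1.79%, where the parents differed by -5.01 on the log2 scale, a remainder of -3.04 ± 0.23 (adjusted p = 1.08e-05). clec-222 gave 73.7 ± 1.84% in XZ1516 (adjusted p = 0.000561) with a remainder of 0.79 ± 0.12 (adjusted p = 0.00115), and in DL238 61.4 ± 3.87% (adjusted p = 0.0508, not called) with a remainder of 1.41 ± 0.14 (adjusted p = 0.000116).

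For clec-63 and clec-166 the alleles differed in the ECA701 cross, where the parental difference did not pass the test. clec-63 gave a wild share of 60.2 ± 0.282% there, with a remainder of -0.68 ± 0.05. clec-166 gave 20.2 ± 2.01%, where ECA701 parents had 5.71, 5.80 and 6.73 CPM (log2 difference -0.15, adjusted p = 0.452), with a remainder of 1.83 ± 0.20.

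clec-50 alleles differed in the direction of the parents in XZ1516 (28.4 ± 1.38%, adjusted p = 0.000103) and ECA701 (18.8 ± 0.384%, adjusted p = 4.47e-05). clec-150 wild alleles gave 26.8% to 39.5% in every cross but QX1211, where they gave 46.6% and did not pass the test (adjusted p = 0.259); the calls were lost without F1 replicate 2 in CB4856 (adjusted p = 0.051) and without replicate 1 (0.053) or 2 (0.077) in ECA722.

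Counting members by these tests, the alleles and the parents differed with no remainder called for 6 members in CB4856, 4 in DL238, 11 in ECA701, 11 in ECA722, 3 in EG4348, 13 in QX1211 and 19 in XZ1516. These were 12.2%, 7.69%, 15.7%, 15.7%, 6.52%, 16.2% and 20.4% of the members tested, against 3.97%, 4.00%, 7.35%, 4.89%, 4.80%, 6.33% and 9.52% of all genes tested, in the same order. The remainder, tested over the 9 libraries of a cross, passed for 8 members in EG4348 (17.4%, background 13.7%), 13 in CB4856 (26.5%, background 9.02%), 19 in QX1211 (23.8%, background 13.9%), 6 in DL238 (11.5%, background 9.83%), 19 in XZ1516 (20.4%, background 17.5%), 24 in ECA701 (34.3%, background 21.9%) and 16 in ECA722 (22.9%, background 15.2%). With replicate numbers as a block, the EG4348 and QX1211 counts were 2 and 10. The remainder and the parental difference were both called, with no allelic call, for 10 members in CB4856 (20.4%, against 4.54% of all genes), 5 in DL238 (9.62%, against 5.69%), 13 in ECA701 (18.6%, against 14.1%) and 9 in ECA722 (12.9%, against 9.13%). The same held for 4 members in EG4348 (8.70%, against 7.77%), 10 in QX1211 (12.5%, against 7.88%) and 7 in XZ1516 (7.53%, against 9.69%).

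Whole F1 animals were also set against each parent. Against N2, 67 members differed in the EG4348 cross (40.4%, background 33.5%), 74 in CB4856 (44.6%, background 34.4%), 90 in QX1211 (54.2%, background 38.1%), 71 in DL238 (42.8%, background 33.3%), 93 in XZ1516 (56.0%, background 43.1%), 66 in ECA701 (39.8%, background 46.0%) and 64 in ECA722 (38.6%, background 35.4%). Against the wild parent, 88 differed in EG4348 (53.0%, background 21.8%), 101 in CB4856 (60.8%, background 34.0%), 94 in QX1211 (56.6%, background 48.8%), 73 in DL238 (44.0%, background 24.1%), 94 in XZ1516 (56.6%, background 37.3%), 91 in ECA701 (54.8%, background 46.4%) and 87 in ECA722 (52.4%, background 37.6%).

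A level between the parents, different from both, was called for 18 members in CB4856 (10.8%, against 4.68% of all genes), 19 in DL238 (11.4%, against 5.13%), 31 in ECA701 (18.7%, against 9.30%) and 18 in ECA722 (10.8%, against 7.61%). It was called for 12 in EG4348 (7.23%, against 3.78%), 25 in QX1211 (15.1%, against 8.25%) and 26 in XZ1516 (15.7%, against 8.83%). clec-222 did so in all 7 crosses, with F1 libraries between 17.5 and 27.5 CPM. clec-209 was below N2 in all 7 crosses, at log2 differences from -0.71 in EG4348 to -3.06 in ECA701, and above the wild parent in the 6 crosses other than EG4348. The clec-209 parental means in the EG4348 cross were 254 CPM in EG4348 and 228 CPM in N2, so the F1 mean there was below both and not between them. In the ECA701 cross, where the parent had almost none, its F1 had 27.6, 27.8 and 26.9 CPM. clec-10 F1 had 10.1, 9.83 and 10.6 CPM in CB4856, 7.61, 8.03 and 10.2 CPM in ECA701 and 9.32, 8.60 and 8.51 CPM in ECA722, above the parents at 0 and below N2 at log2 differences of -0.48, -0.73 and -0.68.

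Below both parents were 9 members in CB4856 (5.42%, against 6.37% of all genes) and 10 in DL238 (6.02%, against 4.74%). There were 6 in ECA701 (3.61%, against 7.72%), 8 in ECA722 (4.82%, against 6.36%) and 10 in EG4348 (6.02%, against 4.28%). QX1211 had 9 (5.42%, against 7.75%) and XZ1516 had 8 (4.82%, against 5.16%). Only in DL238 and EG4348 was the share above the background. A few members were below both parents in several crosses, clec-266 and clec-196 in 4 each and clec-41 in 3. clec-266 (X chromosome, 6617393 to 6622915, minus strand, overlapped by kqt-1 on the other strand) had 1.20 to 4.26 CPM over the 21 F1 libraries, against 23.4, 10.7 and 9.11 CPM in N2. Every F1 library lay below every N2 library, and the log2 differences were -2.04 to -3.32. Its parents varied widely among replicates, for example 31.9, 18.4 and 8.35 CPM in DL238. clec-196 (chromosome IV, 17276956 to 17277748, plus strand) had 0.133 to 1.14 CPM in F1 libraries, against 5.26, 2.49 and 2.27 CPM in N2, at -2.30 to -3.40. The other members below both parents in at least 3 crosses were clec-56, clec-84, clec-86, clec-160 and clec-227. clec-41 had 53.7 to 76.1 CPM in F1 libraries, below all N2 libraries, at -0.25 to -0.56.

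More members were above both parents in some crosses: 27 members in CB4856 (16.3%, against 7.19% of all genes), 8 in DL238 (4.82%, against 2.46%), 2 in ECA701 (1.20%, against 5.42%) and 15 in ECA722 (9.04%, against 4.77%). There were 19 in EG4348 (11.4%, against 2.43%), 26 in QX1211 (15.7%, against 7.71%) and 37 in XZ1516 (22.3%, against 5.96%). Many of these members moved with markers of males. Of the members, 30 of 166 (18.1%) had a correlation above 0.6 with the summed level of 8 male genes, against 998 of all tested genes (5.81%). It was taken over the 45 libraries between log2 deviations from the group mean, so differences between groups did not enter it. The male genes were try-5, which encodes a seminal fluid protease, lov-1 and pkd-2, which act in male sensory neurons, and cwp-1 to cwp-5, expressed with them. The correlation is a description over libraries that share groups and crosses, and its threshold was set with these data known: clec-138 lay just inside and clec-261 just outside, both at 0.6 after rounding. The highest were clec-92 (0.799), clec-207 (0.78) and clec-219 (0.773).

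**Figure D5:**
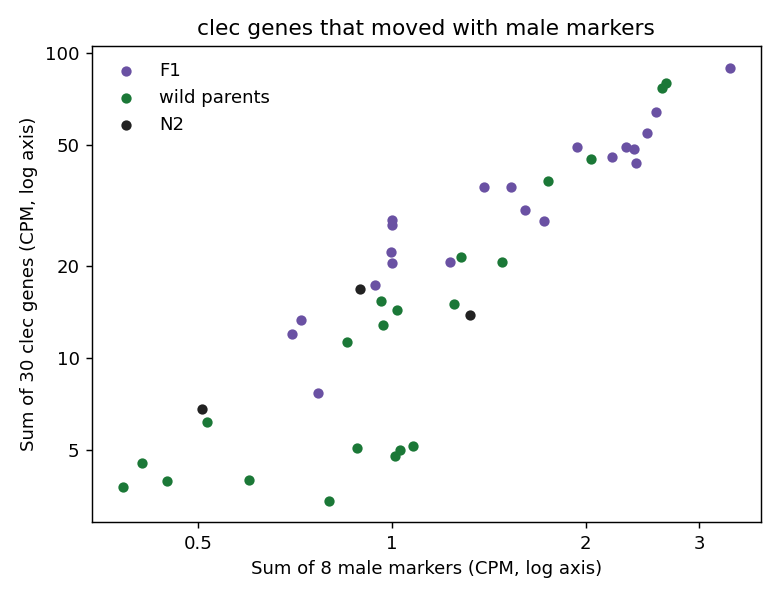
Summed CPM of the 30 clec genes that moved with male markers (vertical, log axis) against summed CPM of the 8 male markers (horizontal, log axis) in the 45 libraries, with F1 libraries, wild parents and N2 libraries in separate colours. Within groups the points rise together by the choice of the genes, which used deviations from group means and not the order of the groups. ECA701 parents (mean of summed clec CPM 65.1) and most F1 libraries are at the top, and EG4348, CB4856 and XZ1516 parents (4.24 to 5.06) at the bottom.

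The 30 genes summed to 45.1 CPM in the XZ1516 F1 (17.3 to 89.8 over its libraries), 44.4 CPM in the QX1211 F1, 39.5 CPM in the CB4856 F1 and 33.6 to 36.8 CPM in the EG4348, DL238 and ECA722 F1, against 12.4 CPM in N2 (6.77 to 16.8). The ECA722 F1 libraries ran from 7.68 to 49.3 CPM, the lowest within the N2 range. All libraries of the other F1 groups just named lay above that range. In the ECA701 cross the F1 was the lower, with 15.3 CPM in the F1 and 65.1 CPM in the wild parent (38.1 to 79.9). The male markers summed to 1.52 to 1.98 CPM in the 6 other F1 groups, 0.883 CPM in the ECA701 F1, 2.35 CPM in ECA701 parents and 0.616 to 1.43 CPM in the other wild parents, against 0.906 CPM in N2. Over single libraries the sum ran from 0.382 to 3.35 CPM, with lov-1 and cwp-1 each at 0 in 9 libraries, cwp-2 in 6, cwp-3 in 26, pkd-2 and cwp-5 each in 1, and try-5 and cwp-4 in none. In ECA701 parents 3 of the 7 tested male markers were higher than in N2, in QX1211 parents 1, and in the other parents none, where 25.5% of all genes were higher in ECA701 and 22.2% in QX1211. In the F1 against N2, 2 were higher in QX1211, 2 in DL238, 1 in ECA722 and none in the other crosses. Against the wild parent, 4 were higher in XZ1516, 3 each in EG4348 and CB4856, and 1 each in QX1211 and ECA722. In QX1211 and in ECA701, 1 was lower. Of all genes, 33.3% to 46.0% differed from N2 and 21.8% to 48.8% from the wild parent, in either direction. Sperm genes summed to 3.83 to 22.2 CPM over libraries, with means of 13.2 CPM in the XZ1516 F1 and 15.8 CPM in ECA701 parents, against 7.69 CPM in N2. In whole animals, fewer cells of a type and less RNA per cell cannot be told apart, and the part of male or sperm RNA in the 30 genes' levels was not tested.

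Without those 30 genes, the parental counts were 78 of 136 in CB4856, 72 in DL238, 95 in ECA701, 73 in ECA722, 66 in EG4348, 82 in QX1211 and 72 in XZ1516. These were 57.4%, 52.9%, 69.9%, 53.7%, 48.5%, 60.3% and 52.9%, against 30.5%, 35.8%, 52.6%, 41.6%, 32.2%, 46.0% and 45.1% of all genes. In QX1211, ECA722 and XZ1516 the share stood further above the background than that of all tested members did. The background here and below still held the 998 genes above the same correlation. The members and the background were thus not filtered alike, and no conclusion is drawn from the wider margin. The median absolute log2 differences of the 136 members were 0.93, 0.71, 1.16, 0.69, 0.58, 0.93 and 0.85. Above both parents were then 13 members in CB4856 (9.56%, against 7.19% of all genes), 8 in DL238 (5.88%, against 2.46%), 2 in ECA701 (1.47%, against 5.42%) and 7 in ECA722 (5.15%, against 4.77%). The remaining crosses had 8 in EG4348 (5.88%, against 2.43%), 12 in QX1211 (8.82%, against 7.71%) and 14 in XZ1516 (10.3%, against 5.96%). In CB4856, ECA722 and QX1211 these shares were near the background. Of the 77 members higher in ECA701 parents, 25 were among the 30. The same overlap over all genes was not counted, so this number does not set the family apart. Members that stayed outside the 30 were not all free of the male pattern: clec-124, clec-141, clec-183 and clec-217 had correlations of 0.558, 0.559, 0.564 and 0.577.

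Single members show how unevenly that group moved. clec-197 (chromosome IV, 17345553 to 17346699, minus strand) had 12.2, 2.06 and 3.44 CPM in the XZ1516 F1 and 10.6, 4.57 and 9.68 CPM in ECA701 parents, against 1.34, 1.87 and 0.41 CPM in N2. Its XZ1516 F1 call was lost without F1 replicate 1 (adjusted p = 0.131). clec-207 (chromosome V, 2096072 to 2097272, plus strand, with 2.48% of fragments shared, mostly with clec-208) had 3.24, 1.41 and 2.93 CPM in ECA701 parents and no count in XZ1516 parents, against 0.54, 0.411 and 0.129 CPM in N2, at a log2 difference of 2.86 in ECA701 and at least 18.9-fold lower in XZ1516. clec-73 (chromosome IV, 3954030 to 3956195, minus strand, 5.02% of fragments shared, mostly with clec-79) had no count in CB4856, QX1211, DL238 or ECA701 parents, against 1.98, 2.22 and 1.78 CPM in N2, and was at least 96.3-fold lower in CB4856. kallisto assigned it 6, 33, 45 and 0 counts in those 4 groups.

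The 8 intestinal marker genes summed to 726 to 1150 CPM over libraries, and 3 to 7 of the 8 were lower in the F1 than in the wild parent in each cross, while 1 at most was higher, in ECA701. Of all genes, 10.4% to 25.6% were lower in these contrasts. Embryo genes summed to 0.638 to 6.47 CPM and hypodermal genes to 230 to 1980 CPM over libraries. The low end of the hypodermal sum was ECA722 parents, with a mean of 243 CPM (230 to 251). The other groups had means of 1080 to 1870 CPM, with 1550 CPM in N2. The gene col-19 alone ran from 153 to 1910 CPM over libraries. The part of this shift in the ECA722 contrasts was not tested. The summed CPM of the clec family stayed within 2730 to 3530 as group means, with 3530 ± 53.7 CPM in EG4348 parents and 3160 ± 46.8 CPM in N2 (SD, n = 3). The part of intestinal RNA content in the F1 levels was not tested.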

How the data were processed

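Whole day 1 adult hermaphrodites gave 45 poly(A) libraries in 15 groups, and per the labels' protocols RNA was extracted in 3 batches holding 1 replicate of each strain, which no label ties to replicate numbers. The deposited values are estimated counts and TPM. Per the submitters' processing notes the authors used Trimmomatic 0.39, FastQC, Salmon 1.4, kallisto and DESeq2 1.42.0, on build ce11; the allele assignment step is known only from the file headers. The authors' deposited expected counts per allele were added up for each gene, then rounded to integers; the authors' kallisto counts were an alternative, and the deposited kallisto TPM gave levels per length. All gene IDs but 13, which held at most 0.00402% of counts, were matched to WBcel235.

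Counts were fitted in edgeR 4.0.16 (R 4.3.3; quasi-likelihood, TMM scaling, filterByExpr), with 1 coefficient per group over all 45 libraries (30 residual degrees of freedom), and p-values were Benjamini-Hochberg adjusted over all genes tested, with a threshold of 0.05. Allelic tests used the counts the authors' model assigned to each allele, for genes whose allele-specific reads averaged 10 or more over a cross's F1 libraries, with the library as covariate. The remainder, the parental minus the allelic difference, was tested over the 9 libraries of a cross. Estimates for members sharing reads depend on the authors' assignment model. Depth, given with the results, limits low members; zeros are bounded at 3 counts over a group, which covers counting error only. The code was tested on simulated data.

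Named genes were the 8 most abundant members, those known from infection work, per strain the 2 largest rises and 2 largest falls without overlap and with at least 1 CPM in the higher group, those called in 1 direction in all 7 strains, the largest allelic differences of each cross, and those above or below both parents in at least 3 crosses. clec-92 and clec-138 were named after their correlations were seen. The members and lists were chosen with earlier results of these data known. Alternatives were RLE scaling, no filter, kallisto counts, DESeq2, only the groups compared, a replicate block, stricter allele rules and leaving out each library. As a check of pairing, deviations of libraries with the same replicate number correlated at -0.29 to 0.53, and all exceeded 0.1 in 3 of 21 comparisons.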

Additional observations from a re-analysis of the deposited data

Results flagged for a closer look

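Some members were called in opposite directions in different wild strains, each against the same N2 libraries. The values below are the differences between the strains' log2 contrasts, and those differences themselves were not tested. Among the abundant members, clec-87 differed by 0.83 between XZ1516 and CB4856, clec-1 by 0.84 between QX1211 and XZ1516, and clec-50 by 2.47 between QX1211 and ECA701.

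Members from infection work included clec-4, by 3.97 between QX1211 and DL238, clec-67, by 2.77 between QX1211 and XZ1516, and clec-85, by 2.04 between EG4348 and DL238. Others without a group at 0 were clec-223, by 4.06 between EG4348 and ECA722, clec-170, by 3.82 between CB4856 and ECA701, clec-3, by 6.07 between ECA722 and DL238, clec-186, by 1.47 between EG4348 and DL238, and clec-190, by 2.19 between ECA722 and EG4348. clec-66 and clec-86 differed by 2.42 and 2.46 between CB4856 and ECA701, and clec-160 by 1.31 between EG4348 and ECA722. Of these, the second strain's call, or the first's for clec-85, did not hold under every alternative for clec-67, clec-85 and clec-170.

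A further set had a group at or near 0 counts, so the size depends on the prior count and is no bound. It held both clec-209 copies (17.00, EG4348 and ECA701), clec-10 (13.80, DL238 and CB4856), clec-49 (13.50, XZ1516 and EG4348, with the XZ1516 direction turned by kallisto counts), clec-166 (12.68, CB4856 and ECA722), clec-169 (10.73, CB4856 and EG4348) and clec-75 (9.76, DL238 and QX1211). Members that were higher in ECA701 and lower in CB4856 were clec-137 (8.40), clec-197 (8.49), clec-208 (8.70), clec-217 (10.21) and clec-219 (6.28), and clec-207 was higher in ECA701 and lower in XZ1516 (10.34). Male markers summed to 2.35 CPM in ECA701 parents, 0.689 CPM in CB4856 parents and 0.738 CPM in XZ1516 parents; their part in these values was not tested.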

How the results depend on the processing

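Of 188 recounts of called members under settings other than leaving out a library, 179 stayed within 1.5 times the reported count. The exceptions were allelic counts from allele-specific reads only (14 in CB4856, 18 in DL238, 33 in ECA722, 11 in EG4348, 36 in QX1211), DESeq2 allelic counts (10 in DL238, 28 in ECA722) and remainder counts with the replicate block (2 in EG4348, 10 in QX1211); the cause was not tested. The block moved no other count that far, and lost 20 of 1055 called differences of named genes. Leaving out a library gave parental counts of 76 to 92 in CB4856, 74 to 90 in DL238, 111 to 118 in ECA701, 69 to 77 in ECA722, 60 to 70 in EG4348, 80 to 88 in QX1211 and 70 to 76 in XZ1516. It gave allelic counts of 1 to 4 in CB4856, 1 to 2 in DL238, 12 to 17 in ECA701, 4 to 15 in ECA722, 1 to 2 in EG4348, 10 to 17 in QX1211 and 15 to 24 in XZ1516. Remainder counts were 7 to 13 in CB4856, 5 to 9 in DL238, 14 to 26 in ECA701, 9 to 19 in ECA722, 2 to 9 in EG4348, 10 to 21 in QX1211 and 12 to 20 in XZ1516. The libraries that moved a remainder count past 1.5 times were EG4348 parental 1, 2 and 3 with N2 2 and 3, CB4856 parental 1 and 2 with N2 2, QX1211 parental 1, 2 and 3 with N2 2 and 3, XZ1516 parental 2, and ECA701 and ECA722 parental 1 and 3. For the 70 named genes, 6208 of 6358 values under the other settings kept direction and call, 144 lost the call and 6 reversed. All 6 reversed with kallisto counts: clec-50 in EG4348 parents (-0.06), clec-85 in CB4856 parents (0.13), clec-49 in XZ1516 (-4.55) and ECA701 (-4.52) parents, and clec-49 F1 minus wild in XZ1516 (3.27) and ECA701 (3.16). Leaving out a library lost 796 of 6771 calls and reversed none. The counts without the 30 members that moved with male markers were chosen after seeing the data. Depth limits members below about 1 CPM and all allelic tests of low members.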
